A study of Mus musculus with 4 samples.

Results

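Autotaxin is a secreted enzyme, encoded by Enpp2, that cleaves choline from lysophosphatidylcholine (LPC) to make lysophosphatidic acid (LPA). LPA is a signalling lipid that acts on cells through a set of G protein-coupled receptors. The genes described here are Enpp2, its relatives Enpp1 and Enpp3, and the LPA receptor genes Lpar1 to Lpar6, 9 of the 47729 genes in the deposited values. They were chosen by name, on account of Enpp2, which had been seen to show the largest rise on the log2 scale between the groups in these same tumors. Their differences between the groups are therefore given as a description, with no test.

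The tumors grew from LLC cells, a line of Lewis lung carcinoma of the mouse, grafted under the skin of the back of C57BL/6 mice and taken on day 5. In the LLC-Chem group the cells had been transfected with a pEFIN plasmid that encodes murine chemerin (1-157), which the labels call full size and the methods bioactive. The labels call the LLC group wild type, whereas the results of the study also mention cells with the empty vector. Each of the 4 libraries is a pool of 3 tumors, with 2 pools per group. Transfected cells were taken as individual clones after selection, and how many clones stand behind the tumors is not given in the sources used here, so that an effect of chemerin and a difference between clones cannot be told apart. Host cells grow into such tumors, and in bulk RNA fewer cells of a type and less RNA per cell cannot be told apart.

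LPA receptors fall into 2 families. Lpar1, Lpar2 and Lpar3 are related to the receptors for sphingosine 1-phosphate, while Lpar4, Lpar5 and Lpar6 are related to purinergic receptors. Receptors of both families act on cell shape, movement and growth. Autotaxin is known as a motility factor of tumor cells, is required for the formation of blood vessels in the mouse embryo and is made in quantity by adipose tissue. Enpp1 and Enpp3 are membrane proteins of the same enzyme family that cleave nucleotides outside the cell, with ATP as a main substrate of both, and neither is a major source of LPA.

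The 9 genes lie on 8 chromosomes of GRCm38, and all 9 are protein-coding. Enpp2 (ENSMUSG00000022425) is on the minus strand at chr15:54838901-54952892. The start of its coding sequence is shown to identify the gene with the largest rise, since values are per gene and do not tell its transcripts apart. It is taken from its longest annotated transcript (3095 bases, of which 2586 are coding). The capitals mark the first coding exon, chr15:54919929-54919961, and the lower case letters the second, chr15:54919599-54919698.
Enpp2: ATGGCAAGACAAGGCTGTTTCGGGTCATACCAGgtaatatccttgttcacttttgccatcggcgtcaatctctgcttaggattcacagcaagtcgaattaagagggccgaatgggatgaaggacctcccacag
Exons of Enpp2 share 345 bases, or 6.0% of their length, with Gm26684, a long non-coding RNA on the opposite strand. Gm26684 was listed at 0 RPM in both LLC pools and at 0.05 RPM in both LLC-Chem pools. Of the words of 50 bases in the Enpp2 transcripts, 5.1% also occurred in another gene. Enpp1 (chr10:24637914-24712159) and Enpp3 (chr10:24772406-24842823) lie side by side on the minus strand with 60.2 kb between them. Of the receptors, Lpar1 lies at chr4:58435255-58553898 on the minus strand. The others are on the plus strand, Lpar2 at chr8:69822429-69831102, Lpar3 at chr3:146220963-146286186, Lpar4 at chrX:106920625-106933900, Lpar5 at chr6:125067920-125082472 and Lpar6 at chr14:73237895-73243294.

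Promoter windows from RefSeq were used for 8 of the 9 genes, and none was used here for Enpp2. The windows of the purinergic-type receptors are shown to compare the receptors of this family. Each run is the 250 bases before the start of transcription (GRCm38.p6, plus strand), with every CG dinucleotide in capitals. They are chrX:106920375-106920624 for Lpar4, chr6:125067670-125067919 for the first of the starts given for Lpar5 and chr14:73237641-73237890 for Lpar6.
Lpar4: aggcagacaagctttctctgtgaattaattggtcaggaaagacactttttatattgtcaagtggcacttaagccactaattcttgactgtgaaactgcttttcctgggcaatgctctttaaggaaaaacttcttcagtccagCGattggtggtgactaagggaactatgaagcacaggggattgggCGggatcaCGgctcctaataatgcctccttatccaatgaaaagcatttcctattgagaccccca
Lpar5: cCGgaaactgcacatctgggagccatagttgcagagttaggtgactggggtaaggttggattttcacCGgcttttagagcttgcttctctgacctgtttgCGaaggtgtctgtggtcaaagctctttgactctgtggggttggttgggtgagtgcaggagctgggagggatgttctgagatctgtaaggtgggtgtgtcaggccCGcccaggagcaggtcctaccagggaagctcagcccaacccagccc
Lpar6: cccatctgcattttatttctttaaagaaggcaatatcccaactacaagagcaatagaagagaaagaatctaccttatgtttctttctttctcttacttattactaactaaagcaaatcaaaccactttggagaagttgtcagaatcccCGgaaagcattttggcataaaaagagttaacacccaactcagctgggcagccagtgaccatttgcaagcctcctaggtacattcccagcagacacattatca
They hold 3 CG for Lpar4, 4 for Lpar5 and 1 for Lpar6, against a median of 6.0 over the 32851 windows of all genes, of which 37.8% hold at most 3. The second window of Lpar5 and that of Enpp3 hold 5 each, that of Lpar2 holds 11, those of Enpp1 and Lpar3 hold 17 each, and the 3 windows of Lpar1 hold 28, 11 and 3. The motif CCAAT, read on both strands, occurs 4 times in the window of Lpar4, 2 times in the second window of Lpar5 and once each in a window of Lpar1 and in that of Enpp3, and 33.8% of all windows hold it. The motif TATAAA, also on both strands, occurs once each in those of Lpar4 and Enpp3, and 12.4% of all windows hold it. The motif ACGTG, 1 form of the core of the element bound by hypoxia-inducible factors, was counted on both strands, so that CACGTG counts on each. The form GCGTG was not counted. It was found 5 times in the window of Lpar2 and once in that of Enpp1, while 16.6% of all windows hold it, and was not found in those of Lpar1, Lpar4, Lpar5 and Lpar6.

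Values are RPM, the reads of a gene per 1000000 reads counted on genes. The depth recovered from the steps between values ranged from 28470000 to 33990000 reads per pool. At this depth 3 reads correspond to between 0.088 and 0.105 RPM, a limit that covers counting error only. Fold changes are differences of log2(RPM + 0.5), LLC-Chem minus LLC, with the standard error from limma, and are understated for weakly expressed genes. The fit took genes whose mean reached 1 RPM, as 8 of the 9 did. Rarres2, which encodes chemerin, gave 102.2 and 98.2 RPM for LLC and 105.9 and 105.8 RPM for LLC-Chem (adjusted p = 0.541, limma), so that it does not settle the labels. Of the 8 lung epithelial markers examined, Krt8 and Krt18 were abundant and Krt19 was between 2.10 and 15.3 RPM, while Nkx2-1 was at 0 RPM in all pools, Epcam and Sftpc were at or under 0.2 RPM, and Krt7 and Cdh1 were at or under 1.4 RPM.

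Enpp2 was the gene with the largest log2 fold change among all 13694 genes in the fit. It had 7.80 and 7.60 RPM in LLC, and in LLC-Chem 378.4 and 341.2 RPM. In reads this was 240 and 216 against 12868 and 11441. The pools of each group lay close together and far from the other group. The mean was 7.70 ± 0.141 RPM for LLC and 359.8 ± 26.3 RPM for LLC-Chem (SD, n = 2 each), a ratio of 46.7, and the log2 fold change was 5.46 (standard error 0.11). By RPM, Enpp2 stood at position 10314 and 10365 among all genes of the LLC pools and at position 346 and 388 in the LLC-Chem pools. No other gene in the fit had a log2 fold change above 4.74. Leaving out any 1 pool gave values between 5.38 and 5.53 for Enpp2.

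**Figure D1:**
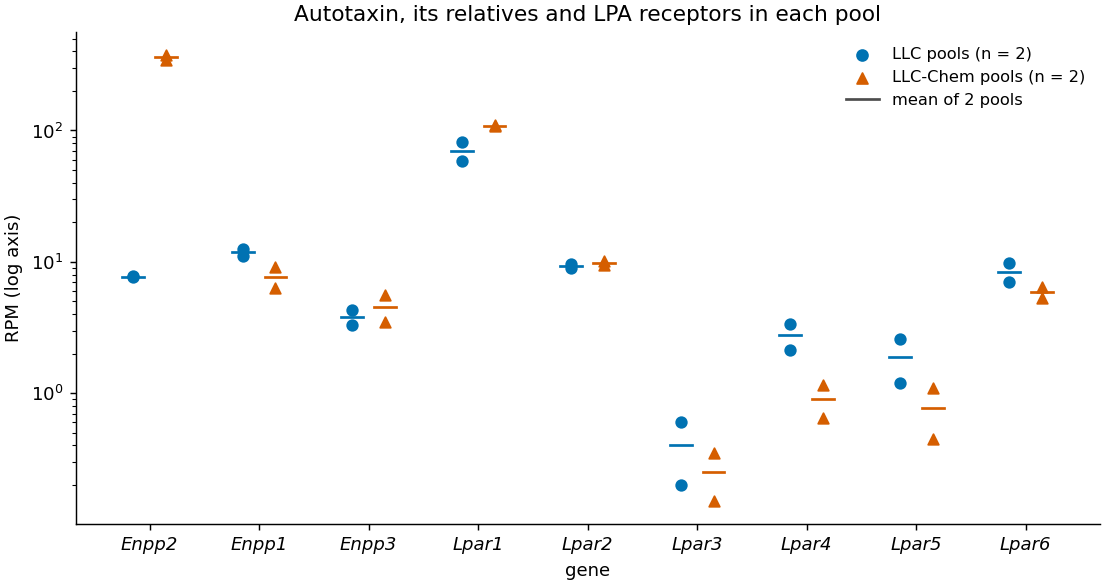
RPM on a log axis for each of the 9 genes, with 1 point for each pool and a line at the mean of the 2 pools of a group (circles, LLC; triangles, LLC-Chem). Enpp2 lies at 7.60 to 7.80 RPM in LLC and at 341.2 to 378.4 RPM in LLC-Chem, and the groups overlap for Enpp3, Lpar2 and Lpar3.

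The relatives of autotaxin differed far less. Enpp1, which makes pyrophosphate from ATP, stood at 11.1 and 12.5 RPM in LLC tumors, against 9.14 and 6.30 RPM in LLC-Chem tumors. It was lower in both LLC-Chem pools, with a log2 fold change of -0.60 (standard error 0.22) that became -0.35 without the second LLC-Chem pool. Enpp3 gave 3.30 and 4.30 RPM for LLC and 5.55 and 3.50 RPM for LLC-Chem. The groups overlapped, and its log2 fold change of 0.20 (standard error 0.28) turned to -0.09 without the first LLC-Chem pool.

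Lpar1, the most widely expressed LPA receptor gene in the mouse, was the only receptor gene among the 6 that was higher in LLC-Chem with no overlap between the groups. It had 58.3 and 82.3 RPM in LLC, and in LLC-Chem 107.3 and 109.5 RPM. The LLC-Chem pools were almost equal, whereas the LLC pools lay apart. The mean was 70.3 ± 17.0 RPM for LLC and 108.4 ± 1.56 RPM for LLC-Chem (SD, n = 2 each), a ratio of 1.54. The log2 fold change was 0.64 (standard error 0.17), and leaving out the first or the second LLC pool gave 0.40 or 0.89. Lpar2 stood at 9.69 and 8.95 RPM in LLC tumors, against 10.2 and 9.49 RPM in LLC-Chem tumors. Its groups overlapped, with a log2 fold change of 0.08 (standard error 0.16). Lpar3 was close to the limit of detection, at 0.20 and 0.60 RPM in LLC and 0.35 and 0.15 RPM in LLC-Chem, or 6, 17, 11 and 5 reads. The exact Poisson 95% intervals of its pools, which cover counting error only, ran from 0.0484 to 0.956 RPM over all pools, and it was below the limit for the fit.

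Of the purinergic-type receptors, Lpar4 was lower in both LLC-Chem pools beyond counting error, while for Lpar5 and Lpar6 the nearest pools of the groups were within it. Counting error leaves out the spread between tumor pools, so that this was not taken to set Lpar4 apart. Lpar4, whose loss impairs vessel formation in the mouse embryo, gave 2.15 and 3.35 RPM for LLC and 1.15 and 0.65 RPM for LLC-Chem. In reads this was 66 and 95 against 39 and 21. Both LLC-Chem pools lay under both LLC pools, and the log2 fold change was -1.21 (standard error 0.31), the lowest of the receptors. Lpar5, a receptor found on leukocytes and platelets among other cells, had 1.20 and 2.60 RPM in LLC, and in LLC-Chem 1.10 and 0.45 RPM. The first pool of each group held 37 reads, so that these pools could not be told apart at this depth. The log2 fold change of Lpar5 was -0.90 (standard error 0.41), and it was -0.46 without the second LLC pool and -1.33 without the first. Lpar6, which is known for its role in hair growth, stood at 9.84 and 7.0 RPM in LLC tumors, against 6.45 and 5.30 RPM in LLC-Chem tumors. The 7.0 and 6.45 RPM of the nearest pools had overlapping counting intervals, and the log2 fold change was -0.47 (standard error 0.23), or -0.24 and -0.71 when the first or the second LLC pool was left out.

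Of the 9 genes, 2 were higher and 4 lower in LLC-Chem with no overlap between the RPM of the groups, and 3 overlapped. For Enpp1, Lpar5 and Lpar6, counted as lower, the exact Poisson 95% intervals of the nearest pools of the groups overlapped. Among all genes in the fit 33.1% were higher and 39.3% lower in this way, 72.5% in all. The median log2 fold change of the 8 genes in the fit was -0.19, against -0.04 for all genes. Lpar6 lies whole within Rb1, on the opposite strand, and exons of Rb1 cover 408 bases or 7.6% of its own. Whether strand was used in counting is not given in the sources used here. Rb1 gave 28.2 and 23.9 RPM for LLC and 21.2 and 16.9 RPM for LLC-Chem, with log2 fold change -0.45 (standard error 0.17).

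**Figure D2:**
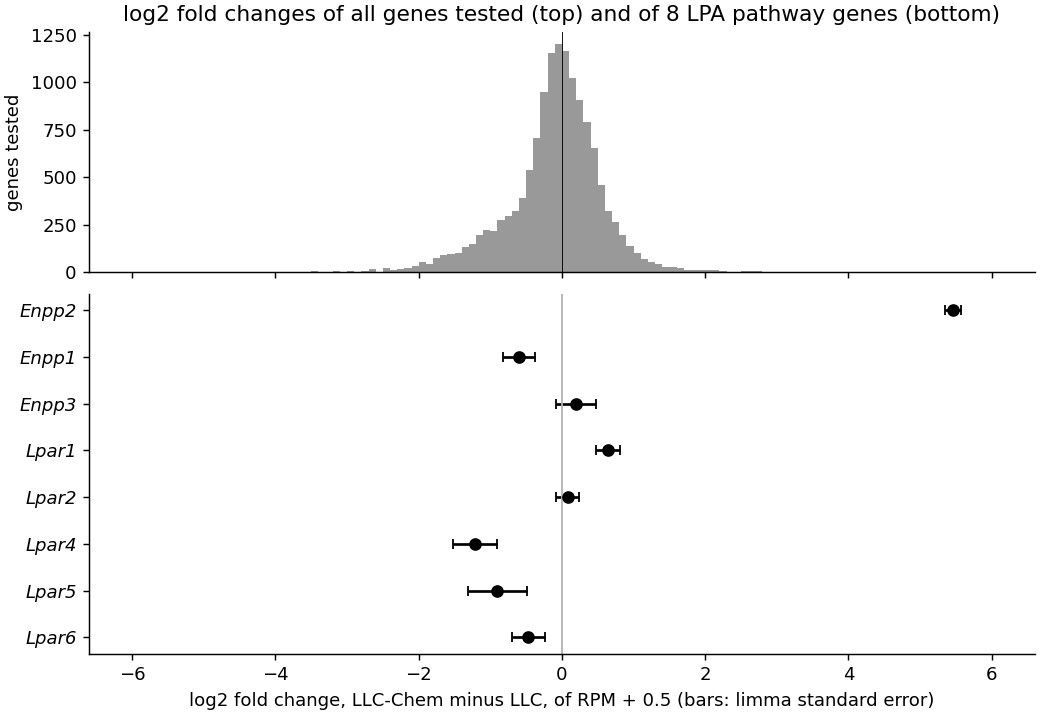
Number of genes in the fit by log2 fold change (top, 13694 genes) and log2 fold change of the 8 genes described here that entered it (bottom, points, with bars for the limma standard error). Enpp2 at 5.46 lies beyond the range of the other genes, while the other 7 lie between -1.21 and 0.64.

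To compare genes with each other, RPM were divided by the exon length in kb. In LLC tumors Lpar1 was the highest of the 9 genes, at 16.4 ± 3.95 RPM per kb (SD, n = 2). Lpar2, Lpar6, Enpp2, Lpar5 and Enpp1 followed at means of 1.60, 1.56, 1.33, 1.25 and 1.15 RPM per kb, and each overlapped with the next in its pools. Lpar4 and Enpp3 came next at 0.649 and 0.631 RPM per kb and also overlapped, and Lpar3 was lowest at 0.162. In LLC-Chem tumors Enpp2 was the highest, at 62.3 ± 4.55 RPM per kb (SD, n = 2), above Lpar1 at 25.3 ± 0.363. The order of the receptors was then Lpar1, Lpar2, Lpar6, Lpar5, Lpar4 and Lpar3, in which the pools of neighbouring receptors did not overlap. Its lower end rests on few reads, 37 and 15 for Lpar5, 39 and 21 for Lpar4 and 11 and 5 for Lpar3. Counting error was not taken into account, so that the order of these genes is not settled. The position of Enpp2 in LLC tumors depends on the length used. With the longest transcript in place of all exons its mean was 2.49 RPM per kb, above every receptor but Lpar1.

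Summed over the 6 receptors, the level was 18.5 and 24.8 RPM per kb in LLC, against 29.1 and 28.7 RPM per kb in LLC-Chem. Lpar1 made up 73.7% and 77.5% of this sum in the LLC pools and 86.0% and 89.1% in the LLC-Chem pools. The part of Lpar2, Lpar4, Lpar5 and Lpar6 was smaller in the LLC-Chem pools. A higher Lpar1 lowers the shares of the others, since it is part of the sum. For Lpar2, whose RPM overlapped between the groups, the part was 9.0% and 6.19% in LLC and 6.03% and 5.68% in LLC-Chem. For Lpar4 it was 2.75% and 3.19% in LLC and 0.932% and 0.535% in LLC-Chem. For Lpar6 it was 9.88% and 5.23% against 4.10% and 3.42%.

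**Figure D3:**
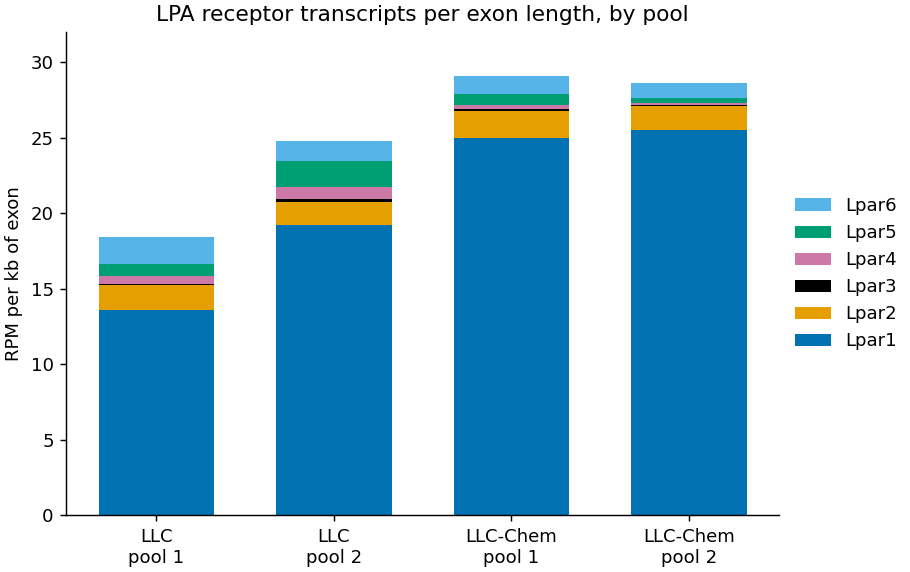
RPM per kb of exon of the 6 LPA receptor genes, stacked for each of the 4 pools. Lpar1 forms most of each bar, from 13.6 RPM per kb in the first LLC pool to 25.5 in the second LLC-Chem pool, and the bands of Lpar4, Lpar5 and Lpar6 are narrower in the LLC-Chem pools. For Lpar5 and Lpar6 the nearest pools of the groups were within counting error.

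Markers of other cells are counted here in the same way, beside the 33.1% of all genes that were higher and the 39.3% that were lower with no overlap. All 9 endothelial markers were lower in both LLC-Chem pools, with a summed level of 276.6 and 186.7 RPM in LLC, against 71.6 and 42.7 RPM in LLC-Chem. Of 8 mural cell markers, 7 were lower, with sums of 306.5 and 241.5 RPM in LLC and 95.1 and 61.8 RPM in LLC-Chem. Of 10 leukocyte markers, 9 were lower, and their sum was 3632.5 and 6559.5 RPM in LLC and 2951.9 and 1419.4 RPM in LLC-Chem. Lyz2 alone made up 2596.3 and 5162.2 RPM of this in LLC and 2229.4 and 1029.8 RPM in LLC-Chem. The part of endothelial cells, mural cells and leukocytes in the lower values of Lpar4, Lpar5, Lpar6 and Enpp1 was not tested. Platelet markers were mixed, with 2 of 5 lower and 1 higher in both pools, and summed to between 382.6 and 407.6 RPM in LLC and between 165.6 and 196.8 RPM in LLC-Chem. Pf4 alone made up 365.0 and 337.8 RPM of this in LLC and 178.7 and 145.6 RPM in LLC-Chem.

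For Enpp2 and Lpar1, which were higher, the lists of adipocytes and fibroblasts bear on the tissue around the tumor. Of 8 adipocyte markers, 3 were higher and 1 lower in both LLC-Chem pools, a share of higher genes near the 33.1% over all genes. Their sum was 36.9 and 28.6 RPM in LLC, against 50.6 and 21 RPM in LLC-Chem, so that the groups overlapped. Fabp4, which endothelial cells and macrophages also express, made up 25.2 and 17.6 RPM of this in LLC and 19.2 and 8.85 RPM in LLC-Chem. Adipoq, the defining hormone gene of adipocytes, was between 0.75 and 3.80 RPM in the 4 pools. Cfd, which encodes the secreted protease adipsin, was at 1.40 RPM in both LLC pools and at 15.1 and 4.10 RPM in LLC-Chem, and rose by 2.16 in log2 units (adjusted p = 0.0466, limma), a call that was lost with a pseudocount of 1 and with eBayes without trend (adjusted p = 0.0706). The LLC-Chem pools of Cfd lay far apart. Cidec and Retn, the others that were higher in both LLC-Chem pools, were at or under 2.25 RPM in every pool. Of 8 fibroblast markers, 3 were higher and 4 lower, near the 33.1% and 39.3% over all genes, and their sums were 12473.4 and 21545.7 RPM in LLC against 8813.5 and 7096.1 RPM in LLC-Chem. Col1a1 and Col1a2 made up most of these sums and were lower, while Dcn, Lum and Pdgfra were the 3 that were higher. Col1a1 had 5768.4 and 9694.3 RPM in LLC and 2911.6 and 2382.5 RPM in LLC-Chem. Pdgfra, a receptor carried by fibroblasts, rose by 0.72 in log2 units by limma (adjusted p = 0.045), a call that edgeR did not give (adjusted p = 0.0555), while Postn, a matrix protein, fell by 3.20 (adjusted p = 0.00909, limma). Of 7 glial markers, 0 were higher and 1 was lower in both pools, and the sums overlapped at 195.1 to 208.3 RPM and 206.9 to 229.1 RPM. The 5 keratinocyte markers summed to at most 4.45 RPM and the 5 muscle markers to at most 5.35 RPM in any pool, with 1 of the former and 2 of the latter at 0 in all pools. The part of these cells in the values of Enpp2 and Lpar1 was not tested.

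The genes beside Enpp2 on chromosome 15 were examined next, since they share its position but were not part of the choice. Of 13 protein-coding genes within 1 Mb of its ends, 10 entered the fit. By limma with Benjamini-Hochberg adjustment over all genes, 0 were higher and 1 was lower, where 9.54% and 13.5% of all genes were called. The lower gene, Sntb1, reached the limit of the fit only through the LLC group, so that its call is a description. At an unadjusted p under 0.05 it was 1 higher and 3 lower, where 18.0% and 23.4% of all genes were. With edgeR 1 was higher and 1 lower (11.3% and 11.7% of all genes), and with DESeq2 1 was higher and 3 lower (13.7% and 16.6% of all genes). The neighbours had log2 fold changes between -1.63 and 0.33. The protein-coding gene nearest to the start of Enpp2, Taf2, which encodes a subunit of the general transcription factor TFIID, lies 62 kb away and had 63.3 and 61 RPM in LLC, and in LLC-Chem 75.8 and 81.0 RPM. Its log2 fold change was 0.33 (SE 0.10, adjusted p = 0.0614, limma). On the other side, 85 kb away, Ccn3, a secreted matricellular protein, stood at 60 and 293.5 RPM in LLC tumors, against 112.8 and 137.9 RPM in LLC-Chem tumors, so that the groups overlapped. Sntb1, a protein of the dystrophin complex 683 kb away, fell by 1.63 in log2 units (SE 0.24, adjusted p = 0.016, limma). It had 2.75 and 3.55 RPM in LLC and 0.75 and 0.6 RPM in LLC-Chem.

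**Figure D4:**
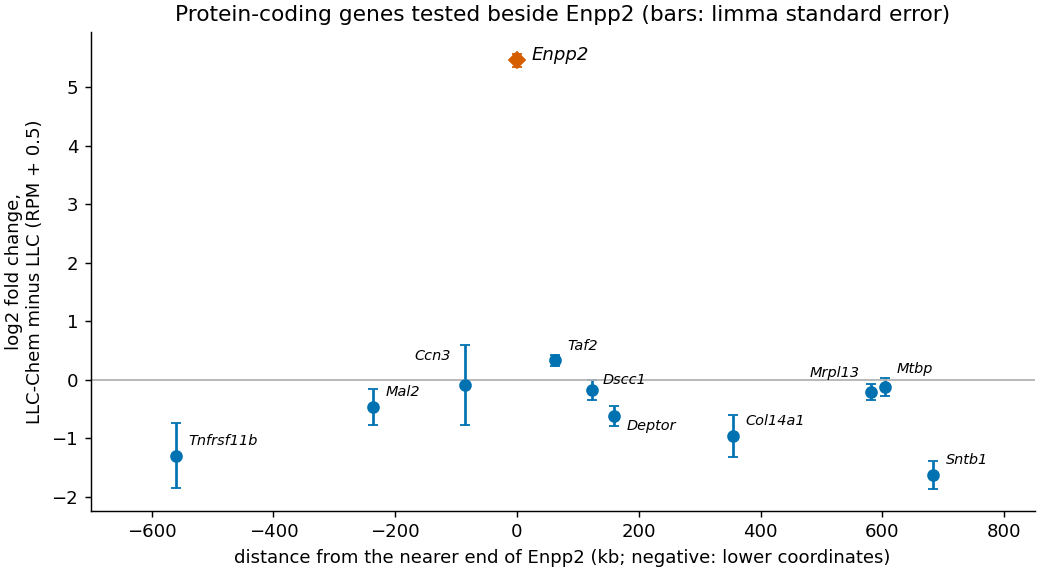
log2 fold change of Enpp2 (diamond) and of the 10 protein-coding genes in the fit within 1 Mb (circles) by distance from the nearer end of Enpp2, with bars for the limma standard error. Enpp2 stands at 5.46 and its neighbours between -1.63 and 0.33.

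The 5 genes whose pattern over the 4 pools lay nearest to that of Enpp2, by the distance between log2(RPM + 0.5) values centred on their mean, were Stra6, Ptn, Map2, Kera and Peg3. Their distances were 0.77, 1.08, 1.74, 2.01 and 2.01 on the log2 scale. Ptn, which encodes the growth factor pleiotrophin, was the most abundant of them, at 19.4 and 22.7 RPM in LLC and 457.4 and 441.7 RPM in LLC-Chem. Peg3, an imprinted gene that encodes a zinc finger protein, gave 20.1 and 22.2 RPM for LLC and 227.5 and 247.9 RPM for LLC-Chem. These genes were found through the same difference between the groups, so that the likeness is a description.

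The other genes of the pathway were examined in 5 lists of 85 genes in all, of which 66 entered the fit. Genes were called by limma at an adjusted p under 0.05, as 9.54% of all genes were in the higher and 13.5% in the lower direction, 23.0% in all. The counts in brackets stand beside 18.0% higher and 23.4% lower of all genes at an unadjusted p under 0.05, 11.3% and 11.7% with edgeR and 13.7% and 16.6% with DESeq2. The first list holds phospholipases, acyltransferases and other enzymes that can supply LPA or the LPC from which autotaxin makes it. Of its 16 genes in the fit, 0 were higher and 2 lower (1 and 4 at an unadjusted p under 0.05, 1 and 2 with edgeR, 1 and 4 with DESeq2), with a median log2 fold change of -0.11. Pla2g7, the platelet-activating factor acetylhydrolase that circulates with lipoproteins, fell to 150.1 and 152.8 RPM in LLC-Chem from 388.0 and 341.2 RPM in LLC (-1.26 in log2 units, SE 0.11, adjusted p = 0.009, limma). Pla2g4a, the cytosolic phospholipase that releases arachidonic acid, fell by 0.43 in log2 units (adjusted p = 0.0415, limma). Pla1a, a secreted phospholipase that acts on phosphatidylserine, was lower in both LLC-Chem pools, at 108.3 and 192.1 RPM against 82.0 and 77.5 RPM, but was not called (adjusted p = 0.0675, limma).

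The second list holds the enzymes that remove LPA or LPC, by taking off the phosphate or by adding a second fatty acid. Of its 15 genes in the fit, 1 was higher and 4 lower, with a median log2 fold change of -0.20. Plpp3, a lipid phosphate phosphatase that breaks down LPA outside the cell, had 89.0 and 220.0 RPM in LLC, and in LLC-Chem 50.1 and 33.7 RPM. It fell by 1.76 in log2 units (SE 0.43, adjusted p = 0.0423, limma), though the LLC pools themselves lay far apart. The related phosphatases Plpp1 and Plpp2 were lower in both LLC-Chem pools and were not called, with log2 fold changes of -0.26 and -0.32 (adjusted p = 0.18 and 0.157, limma). Lpcat2, an acyltransferase that uses LPC and is known from inflammatory cells, fell by 2.18 in log2 units, with 14.4 and 16.1 RPM in LLC and 4.05 and 2.15 RPM in LLC-Chem (adjusted p = 0.0136, limma). Lpcat3, which puts polyunsaturated fatty acids on LPC, fell by 0.70 (adjusted p = 0.0245, limma). Agpat4, which turns LPA into phosphatidic acid inside the cell, rose to 111.1 and 108.0 RPM in LLC-Chem from 73.3 and 79.7 RPM in LLC (0.52 in log2 units, SE 0.10, adjusted p = 0.0251, limma).

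**Figure D5:**
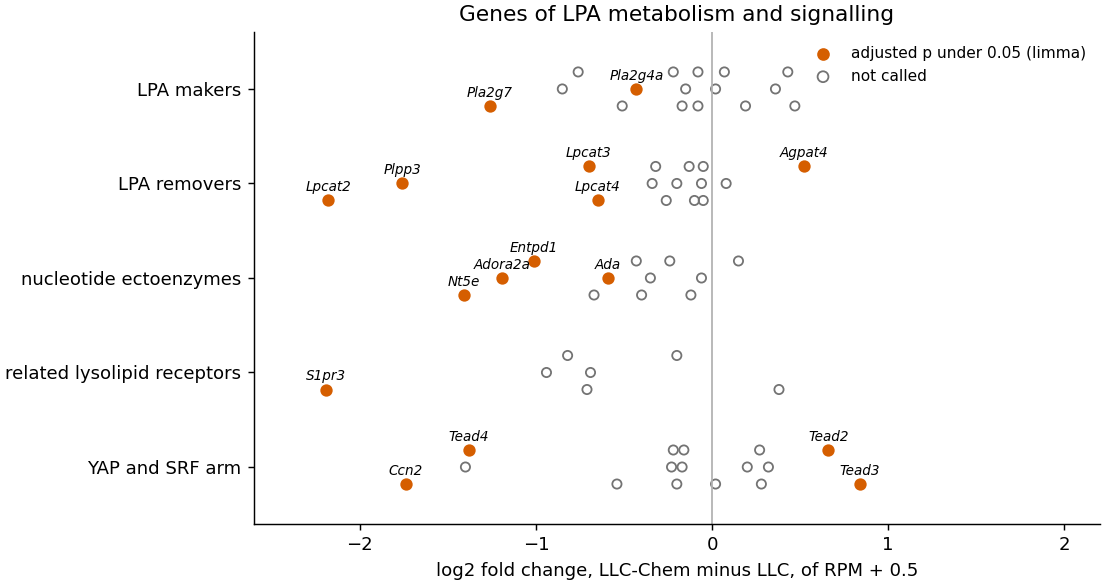
log2 fold change of the 66 genes of the 5 pathway lists in the fit, 1 row for each list. Filled points are genes with an adjusted p under 0.05 by limma, which lie between -2.19 and 0.84, and open points are genes not called.

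The third list sets the enzymes, transporters and receptors of extracellular nucleotides beside Enpp1 and Enpp3. Of its 12 genes in the fit, 0 were higher and 4 lower (0 and 5 at an unadjusted p under 0.05, 0 and 2 with edgeR, 0 and 4 with DESeq2), with a median log2 fold change of -0.41. Nt5e (CD73), which makes adenosine from AMP, fell by 1.41 in log2 units, with 15 and 9.44 RPM in LLC and 5.25 and 3.30 RPM in LLC-Chem (adjusted p = 0.0328, limma). Entpd1 (CD39), which degrades ATP to AMP, fell by 1.01 (adjusted p = 0.0336, limma). Adora2a, an adenosine receptor, fell by 1.19 (adjusted p = 0.0484, limma), a call that was lost with edgeR, with TMM or median-of-ratios scaling, with a pseudocount of 0.1 and with eBayes without trend. Of the other members of the Enpp family on the list, Enpp4 and Enpp5 entered the fit and were not called, while Enpp6 and Enpp7 were below its limit.

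Among the other lysolipid receptors, which include those for sphingosine 1-phosphate, 0 of 7 genes in the fit were higher and 1 was lower (0 and 3 at an unadjusted p under 0.05, 0 and 1 with edgeR, 0 and 2 with DESeq2), with a median log2 fold change of -0.71. The gene that fell was S1pr3, a sphingosine 1-phosphate receptor of vascular and other cells. It had 22.3 and 25 RPM in LLC and 5.0 and 4.6 RPM in LLC-Chem, or -2.19 in log2 units (SE 0.16, adjusted p = 0.00665, limma).

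The last list holds transcription factors and targets of the YAP and SRF pathways, which LPA is known to activate. Of its 16 genes, all in the fit, 2 were higher and 2 lower (2 and 4 at an unadjusted p under 0.05, 2 and 2 with edgeR, 2 and 3 with DESeq2), with a median log2 fold change of -0.16. The TEAD factors, which bind DNA for YAP, moved in both directions. Tead3 rose by 0.84 and Tead2 by 0.66 in log2 units (adjusted p = 0.019 and 0.037, limma), while Tead4 fell by 1.38 (adjusted p = 0.0144, limma). Ccn2, a target gene of YAP, fell by 1.74 in log2 units, with 10.6 and 7.65 RPM in LLC and 3.55 and 1.5 RPM in LLC-Chem (adjusted p = 0.032, limma). With eBayes without trend, Pla2g4a, Plpp3, Agpat4, Entpd1 and Tead2 were no longer called either. With any 1 pool left out, limma called 0 genes of the 5 lists and 0 genes in all, against 998 to 2359 higher and 1580 to 2823 lower at an unadjusted p under 0.05.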

How the data were processed

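RNA from 4 pools of LLC tumors, 2 per group, was sequenced with the TruSeq protocol. RPM were deposited by the authors after alignment of read pairs to GRCm38 (STAR) and counting per Ensembl gene (HTSeq); versions and the strand setting are not given in the sources used here. Groups were taken from the sample labels. All nonzero RPM (100%) lay within 0.0001 RPM of a whole multiple of a step fitted per pool (0.04997 when rounded), from which a scaling to 20000000 reads, rounded up, was inferred; totals were fitted on this basis, with an error of at most 0.0017% in 4 simulated libraries. Nothing says that pools of a group are separate experiments, so p-values measure the spread between these pools.

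Since RPM are not counts, log2(RPM + 0.5) was compared by limma 3.58.1 (R 4.3.3; eBayes with trend, two-sided, Benjamini-Hochberg) over 13694 genes whose mean reached 1 RPM. On simulated data limma called 191 of 200 changed genes among 13688 tested. These data gave every gene the same spread, and the changes were larger than many of those called here. They therefore do not give the share of true changes found in these pools. With 2 pools against 2, an exact permutation test cannot go below p = 0.33. The study's own test was edgeR; edgeR 4.0.16 and DESeq2 1.42.0 were run on the recovered reads as alternatives, beside other pseudocounts, filters, scalings, a replicate block and the omission of each pool. The deviations of same-numbered pools were correlated at -0.1405, so that the numbers were not taken as pairs.

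The genes described and all lists were chosen with earlier results of these data known. A further pathway list is not reported here, and no share of called genes is given over the lists together. Named are the 9 genes, up to 3 rises and 3 falls per pathway list among called genes, the 5 genes nearest to Enpp2 in pattern, genes within 1 Mb of Enpp2, genes that overlap a described gene, the gene for chemerin and marker lists. Pla1a, Plpp1, Plpp2, Pdgfra, Postn, Cfd, Cidec and Retn, and which neighbours of Enpp2 are named, were chosen after their values were seen. Lengths and positions are from GENCODE M21 (GRCm38), which holds 47224 of the 47729 identifiers, and promoters from RefSeq (GRCm38.p6). Plots were made with Python 3.11.15 and matplotlib 3.10.9.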

Additional observations from a re-analysis of the deposited data

How the results depend on the processing

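The log2 fold change of Enpp2 lay between 5.37 and 5.6 over the 15 other settings, the highest being 5.6 with edgeR and 5.59 with DESeq2, both on recovered reads, and between 5.38 and 5.53 with each pool left out. The sign of the other genes described held in the settings run, except for Enpp3 in 1 of 14. For Lpar4 DESeq2 gave -1.59. The share of Lpar1 in the receptor sum of LLC tumors was 75.6% per exon length and 78.7% per longest transcript.

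The counts of called genes moved more. With every gene above 0 RPM tested, limma called 1 gene higher and 0 lower (3394 and 4003 at an unadjusted p under 0.05), and 0 genes of the lists of LPA makers, LPA removers, nucleotide ectoenzymes, lysolipid receptors and the YAP and SRF arm and 0 beside Enpp2. With each pool left out in turn, which leaves 1 pool in a group that is assumed to vary like the other group, the calls were 0 in all lists, 0 higher and 0 lower over all genes, against 998 to 2359 higher and 1580 to 2823 lower at an unadjusted p under 0.05. With the replicate block 549 genes were higher and 1064 lower, with 1 of the LPA makers, 1 of the removers, 2 of the ectoenzymes and 2 of the lysolipid receptors called. Under this block Plpp3 (adjusted p = 0.0675), Agpat4 (0.0606), Lpcat3 (0.0551), Lpcat4 (0.067), Pla2g4a (0.09), Tead2 (0.0769), Adora2a (0.0644), Ada (0.104) and, of the markers, Pdgfra (0.0658), Cfd (0.0511), Col1a1 (0.0857), Col1a2 (0.0871) and Csf1r (0.0853) were no longer called. Without a trend in eBayes 1 maker, 2 removers and 2 ectoenzymes were called. TMM and median-of-ratios scaling each called 2 ectoenzymes and 2 genes beside Enpp2, as did edgeR. DESeq2 called 1876 genes higher and 2271 lower in all, and 5 makers, 2 lysolipid receptors and 4 genes beside Enpp2. With a mean of at least 5 RPM, 0 genes beside Enpp2 were called, since Sntb1 is then no longer tested. With the replicate numbers crossed between the groups, which was added with the data in view, limma called 1579 higher and 2320 lower, with 5 makers, 2 lysolipid receptors and 3 genes beside Enpp2. Pools with the same number share only that number. The cause of the other changes was not tested.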
